A study of Mus musculus with 7 samples.

Results

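The genes examined here are 9 transcription regulators of naive and quiescent T cells, chosen by name: Tcf7, Lef1, Bach2, Foxo1, Foxo3, Foxp1, Satb1, Ets1 and Tob1, with every probe set that the platform annotation assigns to that single gene symbol. Of the 9 genes, 8 had such probe sets, 31 in all, among 18194 named genes and 45101 probe sets of the array. Tcf7 was not analysed here. Of the 31 probe sets, 27 reached log2 5 on at least 2 arrays, the filter used for testing, and 4 lay near background (1 each of Bach2, Foxo1, Foxo3 and Tob1, at 1.39 to 3.56 on all arrays).

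The cells were OT-I cells, CD8 T cells of Ly5.1 mice on the C57BL/6 strain whose transgenic receptor recognises an ovalbumin peptide. They were purified as CD44lo cells, labelled with CFSE, a dye diluted by cell division, and transferred into hosts. In RIP-OVAhi hosts a rat insulin promoter drives ovalbumin, a model of deletional tolerance (n = 2 arrays, each of cells pooled from 20 mice, taken from sacral and pancreatic lymph nodes after 60 h). OCS/LPS hosts received splenocytes coated with ovalbumin together with lipopolysaccharide and model priming (n = 2, pools of 10 mice, spleen, 60 h). Rag hosts, Rag-/- mice without mature lymphocytes of their own, model lymphopenia-induced proliferation (n = 1, a pool of 10 mice, spleen, 5 days). B6 hosts without the antigen gave undivided naive cells (n = 2, pools of 10 mice, spleen, 60 h). Cells of the first 3 groups had divided at least 2 times. Tissue and group coincide for RIP-OVAhi, and time and group for Rag, so these cannot be told apart.

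Resting T cells are held in a naive and quiescent state by an active transcriptional programme. LEF-1 and its relative TCF-1 are HMG-box factors that act with beta-catenin or with Groucho-type corepressors. BACH2 competes with AP-1 factors and restrains effector genes, and the forkhead factors FOXO1, FOXO3 and FOXP1 maintain homing, survival and quiescence. SATB1 organises chromatin loops in T lineage cells, ETS1 supports T cell survival and receptor genes, and TOB1 is an antiproliferative protein that recruits the CCR4-NOT deadenylase.

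Values are log2 expression on the GCRMA scale, and differences are on the same scale, so 1 is a doubling. The arrays were alike in distribution (33.7% to 34.5% of probe sets at log2 5 or more), so a shift common to the whole transcriptome could not be seen. In bulk RNA, fewer cells of a type and less RNA per cell cannot be told apart. The 7 named CD8 T cell markers were all at 9.94 or more on every array. Quality and other cells varied with the groups. The Gapdh probe sets at the 3' end exceeded those at the 5' end, a gap that grows with RNA degradation, by 2.08 and 2.03 (RIP-OVAhi), 1.85 and 1.89 (OCS/LPS), 2.21 (Rag) and 2.59 and 2.43 (naive). The 8 named myeloid markers summed to 6.05 and 5.89 in RIP-OVAhi cells, 8.02 and 8.67 in OCS/LPS cells, 9.93 in Rag and 8.37 and 9.06 in naive cells on the log2 scale, and 0, 2, 4 and 2 or 3 of them reached log2 5 in these groups. The 5 MHC class II markers summed to 5.73 and 5.92 in RIP-OVAhi cells, 7.69 and 8.43 in OCS/LPS cells, 9.17 in Rag and 7.70 and 7.72 in naive cells, with none at log2 5 in RIP-OVAhi. The 6 named B cell markers summed to 8.08 and 8.58 in RIP-OVAhi cells and to 8.42 and 8.87 in OCS/LPS cells. In Rag the sum was 7.22 and in naive cells 7.53 and 8.59, and Cd79b made up most of it. Cd79a lay at 2.14 to 2.24 and Blk at 2.25 to 2.29 on every array. Ms4a1 varied, with 3.74 and 3.98 in RIP-OVAhi cells and 4.92 and 6.67 in OCS/LPS cells. It was at 3.74 in Rag and at 4.73 and 5.72 in naive cells. None of the 4 CD4 and regulatory T cell markers exceeded 3.47 on any array. All 7 dividing cell markers rose in RIP-OVAhi and in OCS/LPS against naive cells, and 6 of 7 in Rag. The part of division, RNA quality and other cells in the results was not tested. Xist was near 2.7 on each replicate 1 array (2.67 to 2.74) and at 12.7 to 13.0 on each replicate 2 array, so the cells of the replicates differed in sex. The only Rag array was among those with low Xist, so comparisons with Rag are not matched for sex.

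Of 8 regulators tested, 3 fell in RIP-OVAhi cells against naive cells (Lef1, Satb1 and Tob1) and 4 fell in OCS/LPS cells against naive cells (Lef1, Bach2, Foxp1 and Tob1), at an adjusted p under 0.05 in limma. None rose in either comparison. The falls were moderate, between 0.65 and 0.95 on the log2 scale. Among all 8203 tested genes, 11.6% were called lower and 18.1% higher in RIP-OVAhi, and 12.3% lower and 20.5% higher in OCS/LPS. The median difference of the 8 regulators was -0.46 in RIP-OVAhi and -0.58 in OCS/LPS, beside 0.06 and 0.08 over all tested genes. Both comparisons use the same naive arrays. In Rag cells against naive cells none of the 8 was called (0 of 8 at an adjusted p under 0.05, 1 at an unadjusted p under 0.05 and 0 with limma-trend, where 0.585% of all tested genes were called lower and 2.15% higher). Their median difference there was 0.23, beside 0.04 over all tested genes. The Rag group has 1 array and was assumed to vary like the others. Each value rested on 2 arrays or fewer a group: without RIP-OVAhi replicate 1 or 2 the count in RIP-OVAhi was 0, without OCS/LPS replicate 1 or 2 it was 1, and without naive replicate 2 it was 5. The count in OCS/LPS was 1 and 2 without OCS/LPS replicate 1 and 2, and the count in Rag was 1 (Ets1) without naive replicate 1.

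**Figure D1:**
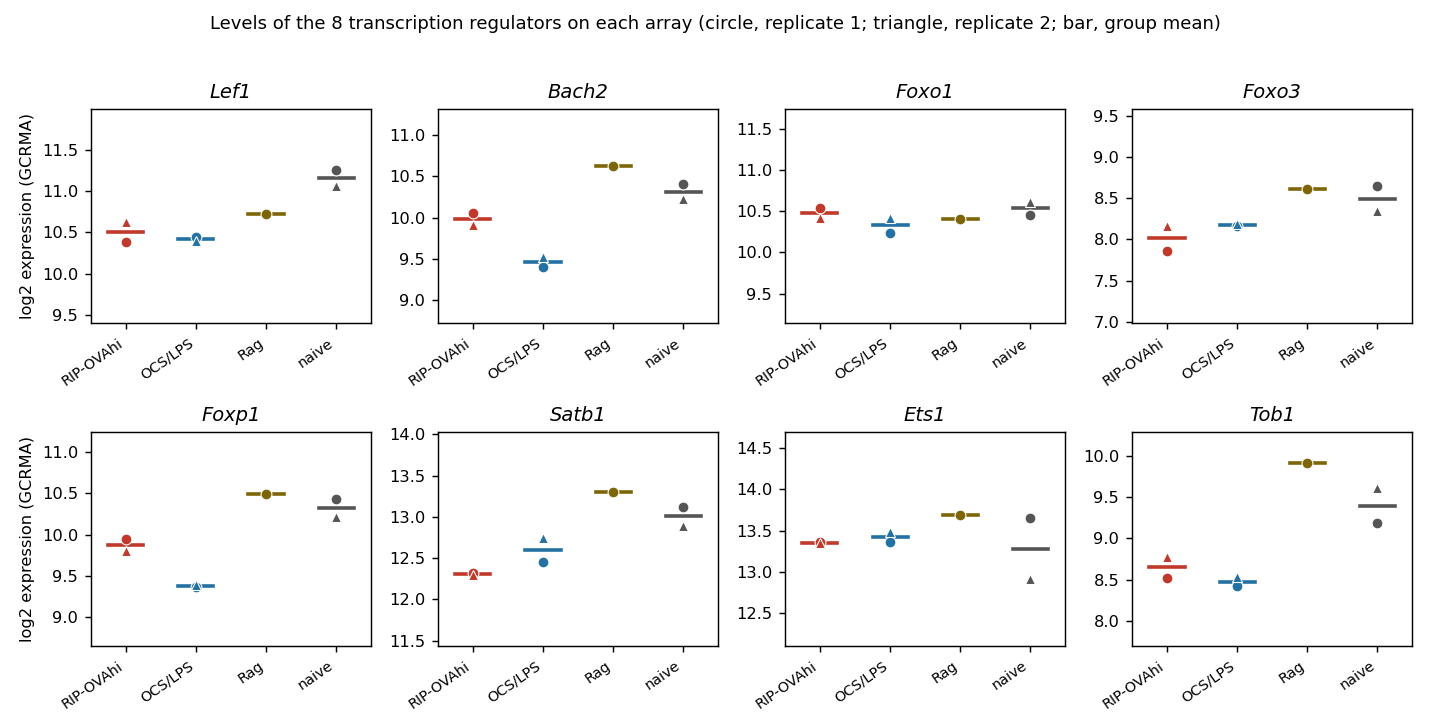
Log2 expression (GCRMA) of the 8 regulators, read from the probe set of each gene with the highest mean, for RIP-OVAhi, OCS/LPS, Rag and naive cells; circles are replicate 1, triangles replicate 2 and bars group means, and every panel spans the same range on the log2 scale. Every regulator except Foxo1 lies lower on all antigen-driven arrays than on the Rag array, and Foxo1 spans only 0.21 between group means.

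Lef1, the HMG-box factor, was at 10.38 and 10.63 in RIP-OVAhi cells, 10.44 and 10.39 in OCS/LPS cells, 10.72 in Rag, and 11.25 and 11.06 in naive cells. Every divided array lay below both naive arrays, and the RIP-OVAhi and OCS/LPS arrays overlapped. Lef1 fell by 0.65 in RIP-OVAhi (SE 0.14, limma adjusted p = 0.0199) and by 0.74 in OCS/LPS (SE 0.14, limma adjusted p = 0.0121). The difference in Rag was -0.43 (SE 0.17, limma adjusted p = 0.274). A second Lef1 probe set, 1421299_a_at, had a wider gap: 8.30 and 8.21 in RIP-OVAhi cells, 8.28 and 7.86 in OCS/LPS cells, 8.07 in Rag, against 9.57 and 9.25 in naive cells. In a fit of all 16140 probe sets past the same filter, it fell by 1.15 in RIP-OVAhi (limma adjusted p = 0.011) and by 1.34 in OCS/LPS (limma adjusted p = 0.00606). Its difference in Rag was as large, -1.34, but missed the threshold with 1 array (limma adjusted p = 0.0703). Among the 8 regulators, Lef1 alone had negative differences from naive at every probe set past the filter in all 3 divided groups. The call in RIP-OVAhi was lost without any 1 array of RIP-OVAhi or OCS/LPS (highest adjusted p = 0.129), and that in OCS/LPS without either OCS/LPS array (highest adjusted p = 0.0873).

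Bach2 encodes a repressor of effector genes. It was at 10.05 and 9.91 in RIP-OVAhi cells, 9.40 and 9.52 in OCS/LPS cells, 10.62 in Rag, and 10.41 and 10.22 in naive cells. The OCS/LPS arrays were the lowest, the RIP-OVAhi arrays lay between them and naive without overlap, and the Rag array was the highest. Bach2 fell by 0.85 in OCS/LPS against naive (SE 0.13, limma adjusted p = 0.00608). In RIP-OVAhi the difference was -0.33 (SE 0.13, limma adjusted p = 0.116), and in Rag 0.31 (SE 0.16, limma adjusted p = 0.395). The second probe set past the filter, 1437667_a_at, stood at 8.51 and 8.73 in RIP-OVAhi cells, 8.28 and 8.21 in OCS/LPS cells, 9.01 in Rag and 9.16 and 9.30 in naive cells. In the fit of all probe sets it fell in OCS/LPS by 0.99 (limma adjusted p = 0.00579). It also fell in RIP-OVAhi by 0.61 (limma adjusted p = 0.0289). The Bach2 probe sets thus differ over whether RIP-OVAhi passes. They also disagree on Rag cells, which lay below naive at 1437667_a_at (-0.22) and above naive at the first probe set (0.31). The OCS/LPS call was lost without OCS/LPS replicate 1 (adjusted p = 0.0542).

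Foxp1, a forkhead factor that restrains the proliferation of naive T cells, ran close to Bach2. Its probe set with the highest mean, 1438802_at, was at 9.95 and 9.80 in RIP-OVAhi cells, 9.36 and 9.39 in OCS/LPS cells, 10.49 in Rag, and 10.42 and 10.22 in naive cells. The order of the groups was that of Bach2, with no overlap between RIP-OVAhi, OCS/LPS and naive. Foxp1 fell by 0.95 in OCS/LPS (SE 0.13, limma adjusted p = 0.00422), a call that held in all 13 alternatives tried. In RIP-OVAhi it differed by -0.44 (SE 0.13, limma adjusted p = 0.0528), and it passed there with limma-trend, after centring each array on its median and without naive replicate 2 (lowest adjusted p = 0.0228). In OCS/LPS against naive the other probe sets of Foxp1 gave smaller differences. In RIP-OVAhi against naive Foxp1 differed as much at 1435222_at (-0.44). Of its 8 probe sets, 2 were called lower in OCS/LPS in the fit of all probe sets, and none in RIP-OVAhi. The differences of the 8 ran from -0.95 to -0.01 in OCS/LPS and from -0.44 to 0.07 in RIP-OVAhi. The other called probe set, 1435222_at, was at 9.71 and 9.65 in OCS/LPS, against 10.14 and 10.33 in naive cells (-0.55, adjusted p = 0.0265). Its Rag value of 9.87 lay below naive, unlike that of 1438802_at, so the probe sets of Foxp1 disagree on Rag cells.

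Among the 8203 tested genes, the one whose profile over the 7 arrays lay nearest to Bach2 was Foxp1, with a root mean square difference of 0.058 on the log2 scale after each gene was centred on its own mean. Bach2 was likewise the nearest gene to Foxp1. Next to Bach2 came Rapgef6, which encodes an exchange factor for Rap GTPases (0.060), and Rere, which encodes a nuclear corepressor (0.096). Next to Foxp1 came Rapgef6 (0.093) and Ap2a2, which encodes a subunit of the clathrin adaptor AP-2 (0.101). The nearness holds for the probe set with the highest mean of each gene, and the other Foxp1 probe sets moved less in OCS/LPS against naive.

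**Figure D2:**
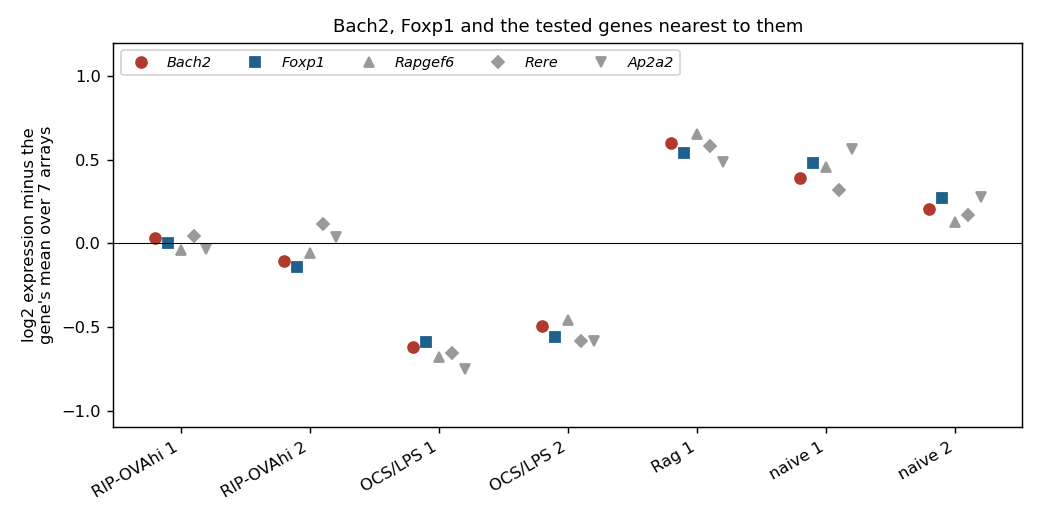
Log2 expression minus each gene's own mean over the 7 arrays, for Bach2, Foxp1 and the 3 other tested genes nearest to either of them (Rapgef6, Rere and Ap2a2). All 5 are lowest on the OCS/LPS arrays, near their mean on the RIP-OVAhi arrays and above it on the Rag and naive arrays.

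The bases upstream of the annotated starts are shown for Bach2, Foxp1 and Satb1, the regulators with a match in the search below. They are printed as RefSeq gives them for GRCm38.p6, on each gene's own strand. Windows of 250 bases before each start were searched on both strands for GTAAACA (forkhead), CTTTGAT and CTTTGTT (TCF/LEF), TGANTCA (AP-1 and BACH) and CCGGAAG (ETS). Of the 8 regulators, 7 had 16 windows, among them 1 of Bach2, 3 of Foxp1 and 5 of Satb1. Printed are windows of these genes that hold a match, and the capitals mark the matches. The Bach2 window is chr4:32417185-32417434 on the plus strand. The Foxp1 windows printed are chr6:99520994-99521243 and chr6:99266516-99266765, and the Satb1 window printed is chr17:51812185-51812434, all on the minus strand.
Bach2: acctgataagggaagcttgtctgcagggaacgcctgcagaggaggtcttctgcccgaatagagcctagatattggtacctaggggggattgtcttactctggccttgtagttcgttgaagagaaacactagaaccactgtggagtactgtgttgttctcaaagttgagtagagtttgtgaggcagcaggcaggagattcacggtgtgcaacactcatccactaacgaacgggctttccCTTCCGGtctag
Foxp1, first window: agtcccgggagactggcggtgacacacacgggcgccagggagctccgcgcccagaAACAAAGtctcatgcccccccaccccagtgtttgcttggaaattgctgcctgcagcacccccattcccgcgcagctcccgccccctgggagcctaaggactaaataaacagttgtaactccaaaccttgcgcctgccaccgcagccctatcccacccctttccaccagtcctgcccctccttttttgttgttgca
Foxp1, second window: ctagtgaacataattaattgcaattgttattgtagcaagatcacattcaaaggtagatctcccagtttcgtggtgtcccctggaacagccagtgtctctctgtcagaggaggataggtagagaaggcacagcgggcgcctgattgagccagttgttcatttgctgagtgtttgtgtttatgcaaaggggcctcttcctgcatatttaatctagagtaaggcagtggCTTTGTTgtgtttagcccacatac
Satb1: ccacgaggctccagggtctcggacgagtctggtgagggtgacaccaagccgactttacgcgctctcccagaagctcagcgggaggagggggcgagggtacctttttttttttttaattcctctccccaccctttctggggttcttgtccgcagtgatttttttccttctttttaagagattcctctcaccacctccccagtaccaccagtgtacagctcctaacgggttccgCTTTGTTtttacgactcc

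The Bach2 window holds 1 ETS match that begins 12 bases before the start. Of the 3 Foxp1 windows, the 2 printed hold 1 TCF/LEF match each, beginning 195 and 24 bases before their starts. Of the 5 Satb1 windows, the one printed holds 1, beginning 18 bases before its start, an overlapping window holds the same match, and the other 3 hold none. In all, 4 of the 16 windows had a TCF/LEF match and 1 an ETS match, and 0 had the forkhead or the AP-1 and BACH letters. The windows of Foxo1, Foxo3, Lef1 and Tob1 held no match. Of these genes, Lef1 and Tob1 were called lower in both antigen-driven groups against naive. Of all 32851 windows of the table, 8.06% had a TCF/LEF match, 6.91% an ETS match, 6.75% an AP-1 and BACH match and 3.17% a forkhead match. These are matches of letters only.

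Foxo1, which drives homing and interleukin-7 receptor genes in naive T cells, was nearly level. It was at 10.53 and 10.42 in RIP-OVAhi cells, 10.23 and 10.42 in OCS/LPS cells, 10.40 in Rag, and 10.45 and 10.61 in naive cells. RIP-OVAhi overlapped naive, the OCS/LPS and Rag arrays lay below both naive arrays, Rag also lay below both RIP-OVAhi arrays, and no comparison was called. The 95% interval of the difference from naive was -0.39 to 0.27 in RIP-OVAhi and -0.54 to 0.13 in OCS/LPS, so changes inside these bounds cannot be told from none. Its probe sets did not agree in OCS/LPS: 1416981_at was at 9.21 and 8.95 in OCS/LPS, against 9.78 and 9.69 in naive cells (-0.65, adjusted p = 0.0215 in the fit of all probe sets), whereas 1416982_at was at 9.28 on both OCS/LPS arrays, against 9.37 and 9.17 in naive cells.

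Foxo3, the second FOXO factor, was at 7.86 and 8.16 in RIP-OVAhi cells, 8.16 and 8.19 in OCS/LPS cells, 8.61 in Rag, and 8.65 and 8.35 in naive cells. All 4 antigen-driven arrays lay below the naive and Rag arrays. The difference was -0.48 in RIP-OVAhi (SE 0.17, limma adjusted p = 0.0767) and -0.32 in OCS/LPS (SE 0.17, limma adjusted p = 0.188), and neither passed. A second probe set, 1434832_at, differed by 0.04 in RIP-OVAhi and by 0.28 in OCS/LPS, so it did not share the lower values.

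Satb1, the chromatin organiser, was measured by 5 probe sets. The one with the highest mean, 1416008_at, was at 12.31 and 12.29 in RIP-OVAhi cells, 12.45 and 12.75 in OCS/LPS cells, 13.30 in Rag, and 13.12 and 12.89 in naive cells. The RIP-OVAhi arrays were the lowest and Rag the highest. Satb1 fell by 0.71 in RIP-OVAhi (SE 0.15, limma adjusted p = 0.0203), and the difference in OCS/LPS was -0.41 (SE 0.15, limma adjusted p = 0.0928). In the fit of all probe sets, 4 of 5 Satb1 probe sets were called lower in RIP-OVAhi and 2 of 5 in OCS/LPS, and all 5 differences were negative in both. The widest change was that of 1439315_at. It was at 5.65 and 5.54 in RIP-OVAhi cells, 5.55 and 5.24 in OCS/LPS cells, 7.19 in Rag, and 7.78 and 7.29 in naive cells. It fell by 1.94 in RIP-OVAhi (SE 0.21, adjusted p = 0.00253) and by 2.14 in OCS/LPS (adjusted p = 0.00152), with values close to log2 5 in both. The call of 1416008_at in RIP-OVAhi was lost without RIP-OVAhi replicate 1 or 2 (highest adjusted p = 0.125) and with no filter on low values.

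Over the 27 probe sets past the filter, 8 were called lower in RIP-OVAhi and 10 in OCS/LPS against naive, where 12.0% and 14.3% of all 16140 probe sets were. None was called higher, beside 15.0% in RIP-OVAhi and 18.0% in OCS/LPS. In Rag against naive none of the 27 was called lower or higher (0.533% and 1.29% of all probe sets), and in RIP-OVAhi against OCS/LPS likewise none (0.905% and 1.18%). Against Rag, 5 were called lower in RIP-OVAhi (6.59% of all) and 7 in OCS/LPS (7.63%), and none higher (7.54% and 8.67%). Probe sets of 1 gene share its transcripts and are not independent.

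**Figure D3:**
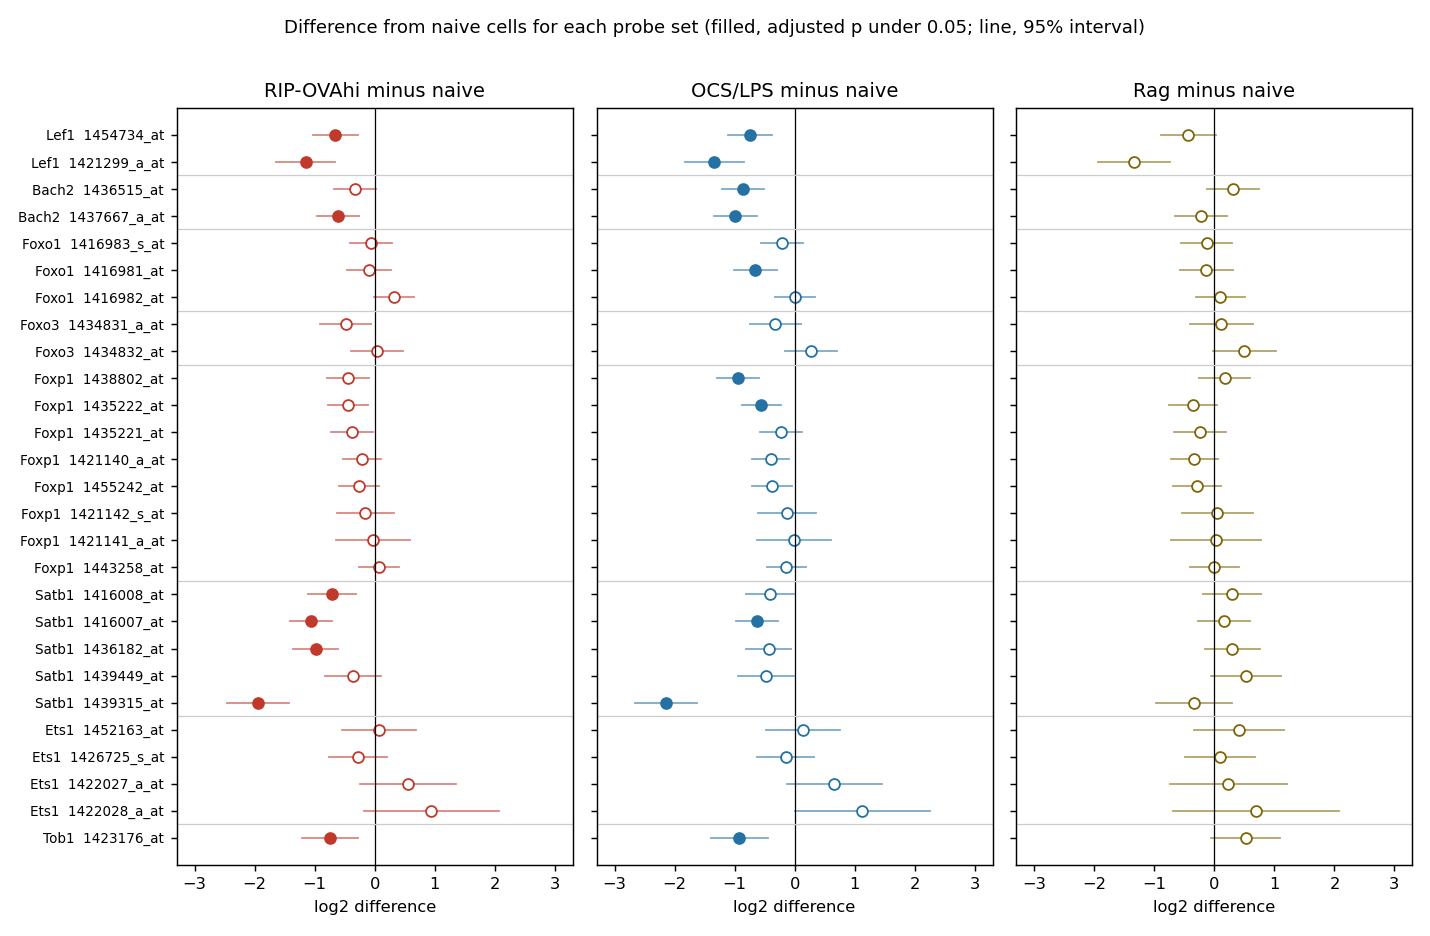
Log2 difference from naive cells for each of the 27 probe sets past the filter, grouped by gene, in RIP-OVAhi, OCS/LPS and Rag cells, from the fit of all probe sets; filled points have an adjusted p under 0.05 and lines are 95% intervals. Of the 27, 8 are called lower in RIP-OVAhi cells and 10 in OCS/LPS cells, none of the 27 is called in Rag cells, and none is called higher in any of the 3.

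Ets1, the founding ETS factor, had naive arrays that stood apart from each other. It was at 13.36 and 13.34 in RIP-OVAhi cells, 13.36 and 13.48 in OCS/LPS cells, 13.69 in Rag, and 13.65 and 12.91 in naive cells. The divided arrays all lay between the naive arrays or just above them. The difference was 0.07 in RIP-OVAhi (95% interval -0.53 to 0.66) and 0.14 in OCS/LPS (-0.46 to 0.73). The sign of both turned without naive replicate 2 (-0.30 and -0.23). In the fit of all probe sets, the 4 Ets1 probe sets ran from -0.28 to 0.94 in RIP-OVAhi and from -0.15 to 1.13 in OCS/LPS. In each group 1 of them lay below 0 and 3 above, and none was called. With naive replicate 2 as the only naive array, Ets1 was called higher in each of the 3 divided groups (adjusted p = 0.0355, 0.0238 and 0.0264 in RIP-OVAhi, OCS/LPS and Rag), so 1 array decides its call.

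Tob1, the antiproliferative partner of the deadenylase, had 1 probe set past the filter. It was at 8.52 and 8.77 in RIP-OVAhi cells, 8.42 and 8.53 in OCS/LPS cells, 9.92 in Rag, and 9.18 and 9.61 in naive cells. The antigen-driven arrays all lay below naive and the Rag array above. Tob1 fell by 0.75 in RIP-OVAhi (SE 0.18, limma adjusted p = 0.0288) and by 0.92 in OCS/LPS (SE 0.18, limma adjusted p = 0.0138). In Rag the difference was 0.52 (SE 0.23, limma adjusted p = 0.303). Both calls were lost with no filter on low values. The call in RIP-OVAhi was also lost without any 1 array of RIP-OVAhi or OCS/LPS (highest adjusted p = 0.174), and that in OCS/LPS without either OCS/LPS array (highest adjusted p = 0.094). By nearness of profile, the genes next to Tob1 were the adhesion molecule gene Icam1 (0.123), Samd8 (0.151) and Lgals3bp (0.152).

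The comparison of RIP-OVAhi with OCS/LPS sets deletional tolerance against priming at the same time after transfer. None of the 8 regulators was called (limma, 0 of 8 at an adjusted p under 0.05, also with limma-trend), where 1.3% of all tested genes were called lower and 1.61% higher. At an unadjusted p under 0.05 there were 2, Bach2 and Foxp1, both higher in RIP-OVAhi. Bach2 differed by 0.52 (95% interval 0.19 to 0.85, adjusted p = 0.136), by 0.65 among the arrays numbered 1 and by 0.39 among those numbered 2. Foxp1 differed by 0.51 (0.18 to 0.83, limma adjusted p = 0.141), by 0.59 and 0.42 within the numbers. Of its 8 probe sets, 5 were higher in RIP-OVAhi and 3 lower, with a median of 0.11 in the fit of all probe sets. Satb1 leaned the other way, with -0.30 (-0.68 to 0.08, adjusted p = 0.422). For Lef1 (-0.26 to 0.44), Foxo1 (-0.18 to 0.48) and Tob1 (-0.28 to 0.62) the intervals held 0. The regulators that passed against naive in 1 group and not in the other (Satb1, Bach2 and Foxp1) are therefore not shown to differ between RIP-OVAhi and OCS/LPS.

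The comparisons with Rag set antigen-driven division against division in empty hosts. Against Rag, 3 of 8 regulators were lower in RIP-OVAhi (Bach2, Satb1 and Tob1) and 3 in OCS/LPS (Bach2, Foxp1 and Tob1), where 6.9% of all tested genes were called lower in each comparison. None was higher, beside 9.84% of all tested genes in RIP-OVAhi and 11.2% in OCS/LPS. Tob1 had the widest gap, with -1.27 in RIP-OVAhi (SE 0.23, limma adjusted p = 0.0168) and -1.44 in OCS/LPS (SE 0.23, limma adjusted p = 0.0116). Bach2 differed by -0.64 in RIP-OVAhi (SE 0.16, limma adjusted p = 0.0489) and by -1.16 in OCS/LPS (SE 0.16, limma adjusted p = 0.00836). The RIP-OVAhi call of Bach2 held in 5 of 12 alternatives and was lost with no filter on low values (limma adjusted p = 0.075), with every probe set tested (0.0646), with the replicate number as a block (0.106) and without any 1 array of RIP-OVAhi or OCS/LPS (up to 0.213). Satb1 was lower in RIP-OVAhi (95% interval of the difference -1.47 to -0.53, limma adjusted p = 0.0206) and differed by -0.70 in OCS/LPS (limma adjusted p = 0.0534). Foxp1 differed by -1.12 in OCS/LPS (limma adjusted p = 0.00931) and by -0.61 in RIP-OVAhi (limma adjusted p = 0.0543). These values are those of its probe set with the highest mean. In the fit of all probe sets, this was the only 1 of 8 Foxp1 probe sets called in OCS/LPS against Rag (median -0.11). In RIP-OVAhi against Rag none of the 8 was called, with 5 lower and 3 higher (median -0.07). Lef1 was not among the regulators called against Rag, with -0.22 in RIP-OVAhi (-0.65 to 0.21) and -0.31 in OCS/LPS (-0.74 to 0.12). All 7 dividing cell markers were higher than in Rag in both RIP-OVAhi (median difference 2.27) and OCS/LPS (3.26), so these markers moved with the groups. The myeloid and MHC class II sums given above were highest on the Rag array. So were those of the 3 named NK cell markers (4.80 and 4.86 in RIP-OVAhi cells, 5.55 and 6.64 in OCS/LPS cells, 7.35 in Rag, 5.55 and 6.46 in naive cells) and of the 3 named erythroid markers (3.77 and 3.78 in RIP-OVAhi cells, 4.18 and 4.17 in OCS/LPS cells, 6.79 in Rag, 5.21 and 4.21 in naive cells). The part of division and of these cells in the differences was not tested. Without RIP-OVAhi replicate 1 or 2 the count in RIP-OVAhi was 0, without OCS/LPS replicate 1 or 2 it was 1, and without either naive array it was 5, while the count in OCS/LPS was 0 without either OCS/LPS array.

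**Figure D4:**
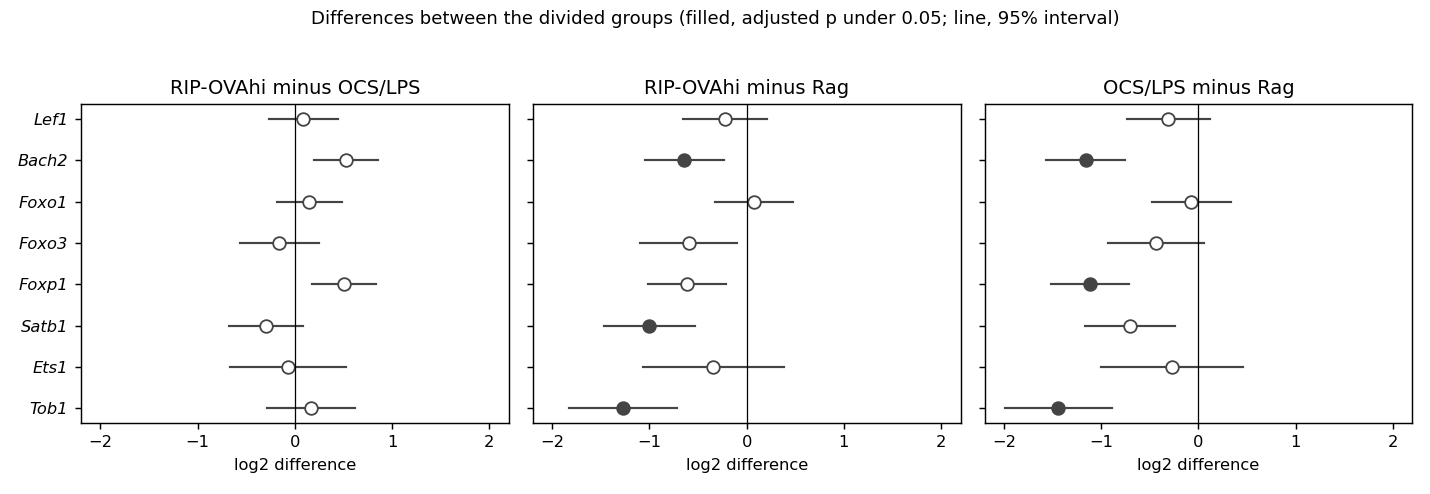
Log2 differences of the 8 regulators between the divided groups, with 95% intervals; filled points have an adjusted p under 0.05. No point is filled for RIP-OVAhi minus OCS/LPS, and 3 are filled, all below 0, in each comparison with Rag.

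The relatives and partners of the regulators were described from lists drawn up from general knowledge. Among all tested genes, 11.6% were called lower and 18.1% higher in RIP-OVAhi against naive. In OCS/LPS against naive these shares were 12.3% and 20.5%. Of 11 tested relatives, 3 fell and 0 rose in RIP-OVAhi against naive, and 2 fell and 1 rose in OCS/LPS, with medians of -0.25 and -0.20 beside 0.06 and 0.08 over all tested genes. None was called in Rag against naive, where without naive replicate 1 there was 1. Without RIP-OVAhi replicate 1 or 2 the count was 1 in RIP-OVAhi and 1 in OCS/LPS, without OCS/LPS replicate 1 or 2 or with no filter on low values it was 0 in OCS/LPS, and without naive replicate 1 it was 5 in RIP-OVAhi. Bach1, the paralog of Bach2, fell by 1.40 in RIP-OVAhi (SE 0.22, limma adjusted p = 0.00652) and by 0.82 in OCS/LPS (limma adjusted p = 0.0337). Btg1, an antiproliferative relative of Tob1, fell by 0.66 in RIP-OVAhi and by 0.65 in OCS/LPS (limma adjusted p = 0.0226 and 0.0214). The ETS repressor gene Etv6 fell by 1.08 in RIP-OVAhi, to 6.47, against 7.55 in naive cells, and it was also lower in RIP-OVAhi than in OCS/LPS (-1.07, limma adjusted p = 0.0303). Foxo4, which encodes another FOXO factor, rose by 0.61 in OCS/LPS (limma adjusted p = 0.0255). Of the 9 tested CCR4-NOT partners of TOB1, none was called in any of the 6 comparisons (medians 0.05 in RIP-OVAhi and 0.04 in OCS/LPS against naive). At an unadjusted p under 0.05 there were 3 in RIP-OVAhi and 2 in OCS/LPS against naive, and limma-trend called 1 in RIP-OVAhi. Without naive replicate 1 there were 2 in each, and without naive replicate 2 there was 1 in each.

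The lists below stand beside the shares of all tested genes called against naive. Called lower were 11.6% (RIP-OVAhi), 12.3% (OCS/LPS) and 0.585% (Rag), and called higher were 18.1% (RIP-OVAhi), 20.5% (OCS/LPS) and 2.15% (Rag). Of 15 tested FOXO targets of lymphocytes, 7 fell and 4 rose in RIP-OVAhi, and 7 fell and 2 rose in OCS/LPS, with medians of -0.66 and -0.68 beside 0.06 and 0.08 over all tested genes. Il7r, the interleukin-7 receptor chain, averaged 9.50 in RIP-OVAhi cells, 10.48 in OCS/LPS cells, 13.01 in Rag and 12.86 in naive cells. Pik3ip1, an inhibitor of phosphoinositide 3-kinase, fell by 1.28 in RIP-OVAhi and by 1.21 in OCS/LPS (limma adjusted p = 0.00323 and 0.00365). The autophagy gene Gabarapl1 rose by 3.35 in RIP-OVAhi and by 4.03 in OCS/LPS, with naive values near background, and it also rose by 1.93 in Rag (limma adjusted p = 0.0474). Bcl2l11, the gene of the death-promoting factor Bim, rose by 1.28 in RIP-OVAhi (limma adjusted p = 0.005), and Ccng2, which encodes an unconventional cyclin, rose by 0.99 in RIP-OVAhi and by 1.06 in OCS/LPS (limma adjusted p = 0.00786 and 0.00573). In Rag, Gabarapl1 was the 1 target of 15 that was called, a call lost with every probe set tested and without any 1 array of RIP-OVAhi or OCS/LPS, and without naive replicate 1 there were 3. The number called in RIP-OVAhi was 5 and 7 without RIP-OVAhi replicate 1 and 2, and that in OCS/LPS was 3 without OCS/LPS replicate 2. Among 14 tested FOXO inputs, 3 fell and 2 rose in each antigen-driven group, with medians of -0.11 (RIP-OVAhi) and -0.04 (OCS/LPS), and none was called in Rag against naive. The number called ranged from 1 to 7 in RIP-OVAhi (1 without RIP-OVAhi replicate 2), from 2 to 8 in OCS/LPS (2 without OCS/LPS replicate 1, 8 without naive replicate 2) and from 0 to 3 in Rag (3 without naive replicate 1) as arrays were left out. The kinase gene Sgk1 fell by 1.75 in RIP-OVAhi and by 1.26 in OCS/LPS, and Akt1, which encodes a kinase that excludes FOXO proteins from the nucleus, rose by 0.62 in RIP-OVAhi and by 1.09 in OCS/LPS (limma adjusted p = 0.0144 and 0.00184). Of the other called inputs, Pik3ca fell by 0.98 in RIP-OVAhi and by 0.79 in OCS/LPS, and Akt2 rose by 0.62 and 0.49. Pdpk1 fell by 0.50 in RIP-OVAhi, and Mapk8 fell by 0.59 in OCS/LPS.

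Of 14 tested genes that act with or alongside LEF-1 and TCF-1, 6 rose and 2 fell in RIP-OVAhi, 3 rose and 1 fell in OCS/LPS, and none was called in Rag, all against naive. Their medians were 0.43, 0.21 and 0.11, beside 0.06, 0.08 and 0.04 over all tested genes. The number called in RIP-OVAhi was 5 without any 1 array of RIP-OVAhi or OCS/LPS, that in OCS/LPS was 2 without OCS/LPS replicate 1, and that in Rag was 5 without naive replicate 1. Myb, a factor of progenitor and stem-like T cells, averaged 11.73 in RIP-OVAhi cells, 10.34 in OCS/LPS cells and 8.13 in naive cells (limma adjusted p = 0.000442 and 0.00254 against naive). The receptor gene Slamf6 rose by 1.61 in RIP-OVAhi and by 1.03 in OCS/LPS. Id3, an inhibitor of E proteins, rose by 1.13 in RIP-OVAhi (limma adjusted p = 0.0366). Axin2, a target of beta-catenin signalling, fell by 1.66 in RIP-OVAhi, to 5.36, against 7.02 in naive cells, and was lower in RIP-OVAhi than in OCS/LPS by 1.33 (difference -1.33, limma adjusted p = 0.0107). Bcl6 and Eomes were higher in RIP-OVAhi than in OCS/LPS, by 1.51 and 0.89 (limma adjusted p = 0.0236 and 0.0361). The corepressor gene Tle1 fell by 1.09 in RIP-OVAhi and by 1.02 in OCS/LPS (limma adjusted p = 0.00172 and 0.0019).

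Of 13 effector regulators opposed to BACH2 and TCF-1, 7 were tested, and Prdm1, which encodes BLIMP-1, stayed at 2.36 to 3.64 on all arrays. In RIP-OVAhi 3 rose and 2 fell, and likewise in OCS/LPS, with medians of 0.62 and 0.74, and in Rag 1 rose and 1 fell. Without OCS/LPS replicate 1 or 2 the number called in OCS/LPS was 3. Tbx21, which encodes T-bet, averaged 8.97 in RIP-OVAhi cells, 10.79 in OCS/LPS cells, 9.13 in Rag and 7.10 in naive cells, and was lower in RIP-OVAhi than in OCS/LPS (-1.81, limma adjusted p = 0.00264). Irf4, a factor induced by antigen receptor signals, averaged 8.49 in RIP-OVAhi and 8.39 in OCS/LPS, against 2.69 in naive cells. Batf rose by 1.34 in RIP-OVAhi and by 1.63 in OCS/LPS (limma adjusted p = 0.00807 and 0.00383). The AP-1 gene Fosl2 fell to 3.83 in RIP-OVAhi and 6.15 in OCS/LPS, against 7.83 in naive cells, and Id2, another inhibitor of E proteins, fell by 1.65 in RIP-OVAhi, by 0.72 in OCS/LPS and by 2.06 in Rag (limma adjusted p = 0.000675, 0.0118 and 0.00402). Of 22 other quiescence genes tested, 5 fell and 4 rose in RIP-OVAhi, and 8 fell and 1 rose in OCS/LPS, with medians of -0.09 and -0.25, and Cdkn2c was the 1 gene called in Rag. The number called was 4 and 5 in RIP-OVAhi without RIP-OVAhi replicate 1 and 2, and 4 or 5 in OCS/LPS without any 1 array of RIP-OVAhi or OCS/LPS, and 5 there with no filter on low values. In Rag it was 5 without naive replicate 1, and 0 without any 1 array of RIP-OVAhi or OCS/LPS and with no filter. Of these 22 genes, the 4 that rose in RIP-OVAhi stand beside 18.1% of all tested genes. Some genes stand on 2 lists, such as Klf2, Pik3ip1, Btg1 and Bcl6. The survival gene Bcl2 fell to 10.32 in RIP-OVAhi and 9.32 in OCS/LPS, against 12.07 in naive cells, whereas Cdkn2c, which encodes the cyclin-dependent kinase inhibitor p18, rose by 3.44 in RIP-OVAhi and by 3.60 in OCS/LPS, and Mxd4, an antagonist of MYC, rose by 2.02 in RIP-OVAhi (limma adjusted p = 0.00797).

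**Figure D5:**
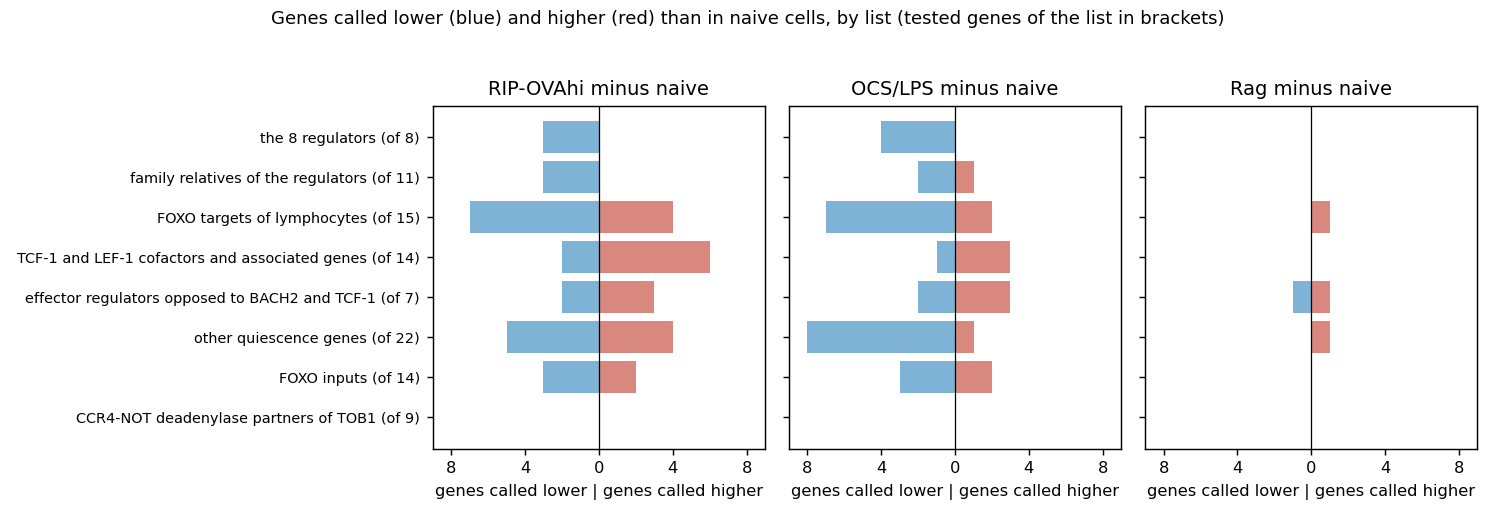
Number of genes called lower (blue, left) and higher (red, right) than in naive cells for the 8 regulators and 7 lists, with the number of tested genes in brackets. FOXO targets have 7 called lower in both RIP-OVAhi and OCS/LPS, and in Rag cells no list has more than 1 called in either direction.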

How the data were processed

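RNA from 7 pools of sorted OT-I cells (100 ng of total RNA each, 2 rounds of amplification, per the labels' protocols) was measured on Affymetrix mouse arrays. The authors deposited log2 values, 1 per probe set. The submitters' processing notes name GCRMA, with no version given in the sources used here. The values were used as deposited, without further normalization. Arrays have no read depth; their number limits the precision.

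Probe sets were named from the platform annotation, where 34958 had 1 symbol, 932 had several and 9211 had none; 34754 matched RefSeq genes of GRCm38.p6. Each gene was read from its probe set with the highest mean, and genes were tested where 2 or more arrays reached log2 5 (8203). limma 3.58.1 (R 4.3.3) fitted all arrays together with a mean for each group (3 residual degrees of freedom, prior 2.93). Two-sided p-values were adjusted by the Benjamini-Hochberg method over all tested genes in each of 6 comparisons. SE is the moderated standard error. A second fit used all 16140 probe sets past the filter, named or not. The labels do not say whether pools were separate experiments, so p-values measure the spread between these arrays.

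The genes named were the 8 regulators, up to 4 called genes per list and comparison (with their calls in the other comparisons with naive), and the 3 genes nearest in profile to each regulator whose group means spanned at least 1. Members and lists were chosen with earlier results of these data known. Prdm1, Foxp3, Ms4a1, Tcf7l1, Tcf7l2 and the genes standing on 2 lists were named after their values were seen. Alternatives were no filter or a stricter one, every probe set tested, centring, limma-trend, the replicate number as a block, the groups with 2 arrays alone, and each array left out. The fit was tested on simulated data.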

Additional observations from a re-analysis of the deposited data

How the results depend on the processing

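For the 8 regulators in 6 comparisons, 600 values were recomputed under other settings, and 533 kept their direction and their side of the threshold, 40 lost a call, 19 gained one and 8 changed sign. Only a value called in the reported fit could lose a call, and most values were not called there. None of the 8 that changed sign was a called value. Centring each array on its median turned Ets1 in RIP-OVAhi (-0.054) and OCS/LPS (-0.011) against naive. Leaving out naive replicate 2 turned Ets1 in RIP-OVAhi (range over the arrays left out -0.30 to 0.43) and OCS/LPS (-0.23 to 0.50), Foxo1 in RIP-OVAhi (-0.14 to 0.023) and Foxo3 in Rag (-0.035 to 0.26) against naive. Leaving out RIP-OVAhi replicate 2 turned Lef1 between RIP-OVAhi and OCS/LPS (-0.035 to 0.21), and leaving out OCS/LPS replicate 1 turned Foxo1 between OCS/LPS and Rag (-0.17 to 0.019). The cause was not tested.

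Counts of called regulators in RIP-OVAhi against naive were 1 with no filter on low values, where more genes are tested, and 5 after centring, beside 3 as reported. They ranged from 0 to 5 as arrays were left out. The count in RIP-OVAhi against Rag was 0 with no filter and 0 to 5 over the arrays left out (3 as reported). Over the arrays left out the counts were 1 to 5 in OCS/LPS against naive (4 as reported), 0 to 1 in Rag against naive (0 as reported), 0 to 4 in OCS/LPS against Rag (3 as reported) and 0 throughout in RIP-OVAhi against OCS/LPS. With the replicate number as a block the counts were 3, 4, 0, 0, 2 and 3 in the order RIP-OVAhi, OCS/LPS and Rag against naive, RIP-OVAhi against OCS/LPS, and RIP-OVAhi and OCS/LPS against Rag; the block removed the call of Bach2 against Rag in RIP-OVAhi (adjusted p = 0.106) and that of Gabarapl1 in Rag against naive. The counts against naive with naive replicate 1 left out include Ets1 as higher, by 0.43 in RIP-OVAhi and 0.50 in OCS/LPS. The labels give no shared source for a replicate number, but Xist was low on every array numbered 1 and high on every array numbered 2. The number therefore ran with the sex of the cells. The Rag group has only an array numbered 1, so its comparisons are not balanced for sex. Differences between arrays 1 and 2 correlated across genes at r = 0.348 (RIP-OVAhi and naive), 0.132 (OCS/LPS and naive) and 0.325 (RIP-OVAhi and OCS/LPS).

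Counts over all genes moved more than 1.5 times when an array was left out: from 2429 to as few as 807 for RIP-OVAhi and from 2698 to 1018 for OCS/LPS against naive, while Rag against naive gave 224, or 59 to 1622. RIP-OVAhi against OCS/LPS gave 239, or 32 to 416, and 105 with no filter. RIP-OVAhi and OCS/LPS against Rag gave 1373 (370 to 2549) and 1483 (397 to 2833). Centring moved the share of called genes that were higher from 61.0% to 47.9% in RIP-OVAhi, from 62.5% to 47.8% in OCS/LPS and from 78.6% to 68.4% in Rag against naive, and shifted all differences there by -0.12, -0.15 and -0.06.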

Other observations

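The naive arrays differed in Ets1 at all 4 of its probe sets, in the same direction. Replicate 2 was below replicate 1 at 1452163_at (12.91 and 13.65), 1426725_s_at (12.58 and 13.10), 1422027_a_at (6.22 and 7.24) and 1422028_a_at (5.37 and 6.81). The 2 arrays of RIP-OVAhi and the 2 of OCS/LPS were 0.01 and 0.12 apart at the first of these.

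The 5 probe sets of Satb1 gave different orders of RIP-OVAhi and OCS/LPS. At 1416008_at, 1416007_at and 1436182_at RIP-OVAhi was below OCS/LPS by 0.30, 0.43 and 0.55 (differences of -0.30, -0.43 and -0.55), whereas at 1439449_at and 1439315_at the differences were 0.12 and 0.20. None of these passed in the fit of all probe sets.

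The TCF relatives Tcf7l1 and Tcf7l2 stayed at 3.48 to 3.82 and at 3.16 to 3.19 on all arrays, and Foxp3 at 2.34 to 2.41.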
